A study of Mus musculus with 6 samples.

Results

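The voltage-gated calcium and sodium channel genes examined here are the 40 genes whose name on the array starts with Cacna, Cacnb or Cacng, or is Scn followed by a number and then a or b. They are represented by 102 of the 56605 probes of an Agilent SurePrint G3 mouse expression array, each probe being a strand of 60 bases that captures labelled copies of 1 transcript. The rule uses the name of a gene and no measured value. A probe entered the comparison when the scanner software marked it as well above background on every array of the vehicle group, of the GSK-J4 group or of both. This kept 83 probes of 35 of the channel genes, out of 34443 probes under 22117 gene names on the whole array, and 75 of the 83 were well above background on all 6 arrays.

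Total RNA of the hypothalamus was taken from male C57BL/6J mice with diet-induced obesity (DIO mice), all fed a high-fat diet with 60 kcal% fat. The 3 arrays of the GSK-J4 group come from mice given GSK-J4 at 30 mg kg−1, and the 3 arrays of the vehicle group come from mice given the vehicle alone, a dose of 0 mg kg−1. GSK-J4 is a small molecule that inhibits the Kdm6 demethylases, the enzymes that remove the repressive H3k27me3 mark from histones, and the description of the series gives day 4 after exposure as the time of sampling, whereas the methods of the study describe a longer course of daily injections and do not give the day of the arrays. A different mouse was used for each experiment, so that a group holds 3 animals and 1 RNA sample was hybridized to each array. The vehicle arrays share 1 slide and 1 scan, and the GSK-J4 arrays share another slide and scan. For every difference given here, an effect of the slide and one of the treatment cannot be told apart. In RNA of a whole tissue, fewer cells of a type and less RNA per cell cannot be told apart either.

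Voltage-gated calcium channels open when the membrane is depolarized and let calcium into the cell, where it drives transmitter and hormone release, rhythmic firing and signalling to the nucleus. Their pore is an α1 subunit (Cacna1 genes), and the α2δ (Cacna2d genes) and β (Cacnb genes) subunits carry it to the membrane and set its gating, while most neuronal members of the γ family (Cacng genes) act as partners of AMPA-type glutamate receptors. Voltage-gated sodium channels start and carry the action potential, with a pore-forming α subunit (Scn genes ending in a) and β subunits (Scn genes ending in b) that modulate and anchor it. Hypothalamic neurons of feeding and daily rhythms depend on both for their firing.

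The differences described below belong to single probes, and probes of the same gene often differed, so part of the sequence of the ones on which the results turn is shown first. Each line gives bases 16 to 45 of the probe, 5′ to 3′, and the position on mm9 is that of the whole probe. G and C are in capitals because their share in the whole probe varied with the direction of the difference over all kept probes. The stretch shown can differ in this share from its whole probe.
Cacna1e, probe A_55_P2719145, at chr1:156546219-156546278 on the minus strand: aaGtatCCaGtGCCttaCaaaaGGattttC
Cacna1d, probe A_55_P2737587, at chr14:31163417-31163476 on the minus strand: tGttattGttttGGGGGCaGttatatGCat
Cacna1g, probe A_51_P466910, at chr11:94269863-94269922 on the minus strand: GCGaGaaCCattttGGaaaCtGtCatGtaa
Cacna2d1, probe A_55_P2738122, at chr5:15535681-15535740 on the plus strand: tatCCCaGtaaCtttaattaaatGaCtCCa
Cacnb2, probe A_52_P295676, at chr2:14884906-14884965 on the plus strand: aaGCttGttttGaaaatGttCaCtattGtC
Scn1a, probe A_55_P2719459, at chr2:66186441-66186500 on the minus strand: GGtGGttCtaCCCatGatGGtCCCtGaCtG
Cacng7, probe A_51_P327675, at chr7:3338624-3339037 on the plus strand, across an exon junction: GCGCaCGGCtaCaCCCttCCCtatGGtCaG
Cacng7, probe A_55_P2117400, at chr7:3367751-3367810 on the plus strand: GttatttaCCGtGtatCatatGtaaatatC
Scn4a, probe A_51_P345985, at chr11:106180721-106180780 on the minus strand: aCCttCCtGtCaCtaCtttaaGaGCCCaGG
The first 6 are the probes with the largest falls of their genes, and the last 3 are the ones that rose in Cacng7 and Scn4a.

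The raw signal was brighter on the vehicle arrays, where its 75th percentile over all probes was 787 to 916, than on the GSK-J4 arrays, where it was 406 to 461, and 83 to 87 of the 102 channel probes were well above background on a vehicle array against 77 or 78 on a GSK-J4 array. The markers of neurons had a kept probe for all 8 genes of the list and none called, and their summed level was 17.42 to 17.53 on the log2 scale for vehicle and 17.27 to 17.64 for GSK-J4. Of 10 hypothalamic markers, Pomc, Agrp, Npy, Oxt, Hcrt and Nr5a1 had a kept probe, whereas the probes of Avp, Pmch and Trh were well above background on only 3 of the 6 arrays and that of Sim1 on 0. Of these hypothalamic markers 2 were called higher and 0 lower, of the markers of oligodendrocyte precursors 1 higher, of those of cerebral cortex 1 lower, and of those of astrocytes, oligodendrocytes, microglia, endothelium, heart muscle, pituitary, choroid plexus, striatum and sensory neurons 0. Summed levels did not overlap between the groups for hypothalamus (11.68 to 11.75 for vehicle and 12.09 to 12.28 for GSK-J4), heart muscle (7.995 to 8.073 and 8.595 to 9.641), cerebral cortex (13.86 to 13.87 and 13.57 to 13.71), astrocytes (15.38 to 15.41 and 15.46 to 15.56) and skeletal muscle, whose values stand beside Scn4a, and their part in the channel values was not tested. The hypothalamic sum stood close to the level of Npy alone, 11.46 to 11.56 for vehicle and 11.89 to 12.04 for GSK-J4. On the kept probes Npy, Pomc and Hcrt did not overlap between the groups, whereas Agrp, Oxt and Nr5a1 did. Agrp and Hcrt were dim, at 4.43 to 5.20 and 4.72 to 5.98 over all arrays. The choroid plexus markers set 1 array apart, vehicle replicate 1, where Ttr, the transthyretin carrier of that tissue, stood at 16.15 against 10.42 to 13.24 on the other arrays (probe A_65_P19832).

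In the channel genes as a whole, falls and rises were both present and about as frequent as on the rest of the array. With limma and Benjamini-Hochberg adjustment over all kept probes, 6 of the 83 channel probes (7.23%) were higher and 10 (12%) were lower with GSK-J4 at an adjusted p of at most 0.05, against 8.39% higher and 8.42% lower of all kept probes. At the thresholds of the methods, which ask for a 1.5-fold change and for p of 0.05 or less before adjustment (taken from limma here), 2 (2.41%) were higher and 9 (10.8%) lower, against 4.79% and 7.86% of all kept probes. With only probes well above background on all 6 arrays, 2 of 75 channel probes were higher and 8 lower at these thresholds. Over all such probes the counts were 1549 and 1893 of 30940. In 18 channel probes (21.7%) all GSK-J4 arrays lay above all vehicle arrays and in another 18 (21.7%) all lay below, against 24.5% and 21.2% of all kept probes. The median difference of the channel probes was 0.06 on the log2 scale, and that of all kept probes 0.02. The called probes belong to 13 genes, 5 with a probe called higher and 8 with a probe called lower. The adjusted calls over the whole array need all the vehicle arrays. With vehicle replicate 1, 2 or 3 left out limma called 0 channel probes at an adjusted p of at most 0.05, while 26, 24 and 24 had an unadjusted p under 0.05, against 29 with all arrays. Over all 34443 kept probes these fits called 2 higher and 8 lower, 1 and 12, and 1 and 4. Without GSK-J4 replicate 1 there were 1 higher and 7 lower channel probes, without GSK-J4 replicate 3 there were 2 and 7, and without GSK-J4 replicate 2 there were 5 and 10. Over all kept probes these fits called, in the same order, 973 and 1429, 1537 and 2481, and 2075 and 2090. With 3 arrays a group, 0.1 is the smallest two-sided p of an exact permutation test, and every probe whose groups do not overlap has this value.

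**Figure D1:**
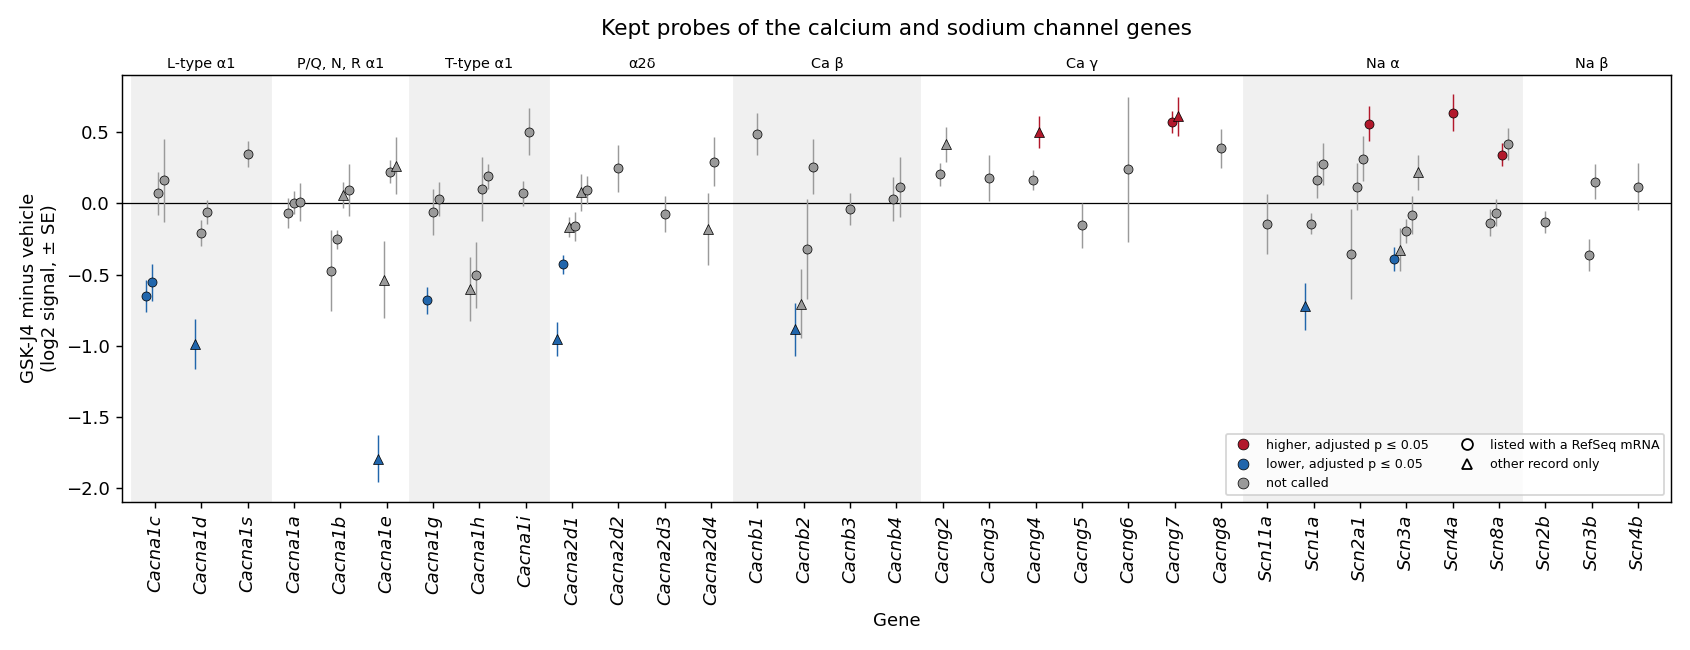
Difference of the group means of normalized log2 signal, GSK-J4 minus vehicle, with its standard error from limma, for 79 of the 83 kept probes of the channel genes, those of 33 genes. Genes are ordered by role and then by name, colour marks the call at an adjusted p of at most 0.05, and triangles mark probes listed without a RefSeq mRNA. The lowest point is the Cacna1e probe at -1.80, and red and grey points of the γ genes lie above 0 except that of Cacng5.

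The L-type α1 subunits, the pores that respond to strong depolarization and couple calcium entry to gene expression, showed falls in Cacna1c and Cacna1d. Of their 8 kept probes 3 were called lower and 0 higher, with a median difference of -0.13. Cacna1c encodes Cav1.2, the main L-type pore of brain and heart. Its probe A_51_P376996 read 8.42, 8.58 and 8.49 on the vehicle arrays and 7.66, 8.03 and 7.84 on the GSK-J4 arrays, in normalized log2 signal. Every GSK-J4 array was below every vehicle array, a difference of -0.65 (standard error 0.114, limma adjusted p = 0.024). A second probe, A_55_P2235931, went from 12.63, 12.76 and 12.71 to 11.97, 12.40 and 12.06, again without overlap, a difference of -0.55 (standard error 0.131, limma adjusted p = 0.0419). Probe A_55_P2014154 of the same stretch of the mRNA gave 0.16 (limma adjusted p = 0.714) and A_55_P2741079, across an exon junction towards the 5′ end, 0.07 (limma adjusted p = 0.758), both with overlapping groups and both well above background on fewer than 6 arrays. A_51_P376996, A_55_P2235931 and A_55_P2014154 lie on an unbroken stretch of the genome, since their distances of 785 and 5978 bases on mm9 equal those in the record NM_001256002.

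Cacna1d encodes Cav1.3, the L-type pore that opens at less depolarized potentials and supports pacemaking. Its probe A_55_P2737587 read 9.34, 9.15 and 9.30 for vehicle and 7.93, 8.32 and 8.58 for GSK-J4. The GSK-J4 arrays spread more widely and all lay below the vehicle arrays, with a difference of -0.99 (standard error 0.175, limma adjusted p = 0.0248). This probe is listed with the cDNA clone AK162450 and lies 308 kb and 310 kb to the 5′ side of the other 2, which are listed with the mRNA NM_001302637 and gave -0.06 (limma adjusted p = 0.638) and -0.21 (limma adjusted p = 0.17). Relative to the probe at the 3′ end, A_51_P251209, the clone's probe stood 0.43 ± 0.13 (SD, n = 3) log2 units higher with vehicle and 0.50 lower with GSK-J4, at -0.50 ± 0.23 (SD, n = 3), so the 2 probes of this gene did not move alike. Cacna1s, the pore of skeletal muscle, had 1 kept probe, with 6.83, 6.81 and 7.02 for vehicle and 7.20, 7.33 and 7.17 for GSK-J4, without overlap, a difference of 0.35 (standard error 0.0926, limma adjusted p = 0.055).

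The P/Q, N and R-type α1 subunits are the pores of presynaptic terminals and dendrites, and 1 of their 11 kept probes was called, in Cacna1e. Cacna1e encodes Cav2.3, the R-type pore. Its probe A_55_P2719145 read 11.09, 10.82 and 11.00 for vehicle and 8.85, 9.41 and 9.26 for GSK-J4. No GSK-J4 array came within 1 log2 unit of a vehicle array, and the difference of -1.80 (standard error 0.165, limma adjusted p = 0.0125), a 3.48-fold lower signal, was the largest of any channel probe. The 95% interval of this difference was -2.20 to -1.39. The transcript behind this probe is listed as ENSMUST00000188321, and the probe lies 305 kb to the 5′ side of the one for the mRNA NM_009782, A_55_P2815532. That mRNA's probe went the other way, with 7.55, 7.53 and 7.60 for vehicle and 7.85, 7.68 and 7.83 for GSK-J4, a difference of 0.22 (standard error 0.0784, limma adjusted p = 0.0992). Between the 2 probes the difference within an array was 3.41 ± 0.13 (SD, n = 3) log2 units with vehicle and 1.39 ± 0.36 (SD, n = 3) with GSK-J4 (two-sided p = 0.1 by exact permutation, the smallest possible). Of the other 2 probes of Cacna1e, A_55_P2719140 gave 0.27 (limma adjusted p = 0.378) with overlapping groups, and A_52_P360292 was not well above background on any GSK-J4 array and allowed no fold above 1.

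Cacna1a and Cacna1b, the P/Q and N-type pores that trigger transmitter release, had no called probe. The brightest probe of Cacna1a, A_55_P2142393, read 12.22, 12.16 and 12.12 for vehicle and 12.01, 12.00 and 12.29 for GSK-J4, overlapping, with a difference of -0.07 and a 95% interval from -0.32 to 0.19. All 3 kept probes of Cacna1a lay between -0.07 and 0.01. For Cacna1b the brightest probe, A_55_P2795340, read 11.90, 11.96 and 11.91 against 11.65, 11.71 and 11.66, without overlap. Its difference of -0.25 (standard error 0.0655) missed the threshold with a limma adjusted p of 0.0521, and its interval ran from -0.41 to -0.09.

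The T-type α1 subunits open near the resting potential and underlie burst firing, and Cacna1g was the one with a called probe. Cacna1g encodes Cav3.1. Probe A_51_P466910 read 10.65, 10.60 and 10.69 for vehicle and 9.94, 9.84 and 10.11 for GSK-J4, without overlap, a difference of -0.68 (standard error 0.0935, limma adjusted p = 0.0172). Its neighbours A_52_P611610 and A_55_P2132756 gave 0.03 (limma adjusted p = 0.862) and -0.06 (limma adjusted p = 0.816), both overlapping. These 3 probes lie in the same mRNA, NM_009783, on an unbroken stretch of the genome, with the called one 1054 and 596 bases to the 3′ side of the others, and they hold 36.7%, 55% and 50% of G and C in that order. Within an array the called probe stood 3.38 ± 0.10 (SD, n = 3) log2 units above A_52_P611610 with vehicle and 2.67 ± 0.33 (SD, n = 3) with GSK-J4, without overlap.

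Cacna1h, which encodes Cav3.2, had 1 probe beyond the thresholds of the methods but 0 at an adjusted p of at most 0.05. This probe, A_52_P588378, read 4.84, 5.01 and 4.91 for vehicle and 3.96, 4.81 and 4.18 for GSK-J4, a difference of -0.60 (limma adjusted p = 0.113). It was well above background on 1 of the GSK-J4 arrays and had the lowest G and C content of the channel probes, 28.3%. The other 3 probes of Cacna1h gave -0.51, 0.10 and 0.19 with overlapping groups. Cacna1i, the Cav3.3 pore, was measured by a bright probe, A_55_P2079076, at 11.95, 12.11 and 12.02 for vehicle and 12.21, 12.09 and 11.98 for GSK-J4, which overlapped, with a difference of 0.07 and a 95% interval from -0.15 to 0.29. Its second probe, A_66_P112371, has the highest G and C content of the channel probes, 73.3%, and read 6.36, 6.30 and 6.65 against 6.66, 6.97 and 7.19. Every GSK-J4 array was above every vehicle array on it, with a difference of 0.51 (limma adjusted p = 0.0885) and an interval from 0.09 to 0.92.

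Of the auxiliary subunits, α2δ had 2 probes called lower among 10 and 0 called higher, both in Cacna2d1, the target of gabapentinoid drugs. The bright probe near the 3′ end, A_55_P1988699, was at 12.91, 12.92 and 12.87 for vehicle and 12.44, 12.51 and 12.46 for GSK-J4. The groups stood clearly apart and each spanned less than 0.1, with a difference of -0.43 (standard error 0.0661, limma adjusted p = 0.0198). The probe of clone AK164580, A_55_P2738122, lies 344 kb further to the 5′ side and read 8.92, 8.77 and 9.05 against 7.78, 8.11 and 7.98, a difference of -0.95 (standard error 0.12, limma adjusted p = 0.0155). The other 4 probes of Cacna2d1 lie between these 2 and gave -0.17, -0.16, 0.08 and 0.10, none of them called. Cacna2d3 was at 12.53, 12.87 and 12.93 for vehicle and 12.78, 12.65 and 12.69 for GSK-J4, overlapping, with a difference of -0.07 and an interval from -0.38 to 0.24. Cacna2d2 gave 0.25 (limma adjusted p = 0.324).

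Among the cytoplasmic β subunits, which bind every high-voltage-activated pore, 1 of 8 probes was called, in Cacnb2. Probe A_52_P295676, listed with ENSMUST00000123719, read 9.02, 9.10 and 9.35 for vehicle and 7.89, 8.50 and 8.43 for GSK-J4. All GSK-J4 arrays were lower, by -0.88 in difference (standard error 0.188, limma adjusted p = 0.0337). A nearby probe listed with ENSMUST00000137746, A_55_P2715066, passed the thresholds of the methods with -0.71 (limma adjusted p = 0.0952), although GSK-J4 replicate 2 at 5.48 overlapped the vehicle range of 5.47 to 5.80. Both lie inside the mm9 span of 3174 bases of probe A_52_P209514, which crosses an exon junction of the mRNA NM_023116, and more than 60 bases from either end of that span, so that they fall in an intron of that mRNA. The junction probe itself read 7.13, 7.12 and 7.10 for vehicle and 7.80, 7.27 and 7.05 for GSK-J4, overlapping, with a difference of 0.26 (limma adjusted p = 0.378). The remaining probe of NM_023116 gave -0.32 (limma adjusted p = 0.546), and on it vehicle replicate 1 stood at 8.95 against 10.22 and 10.12 on the other vehicle arrays. Cacnb1, with 1 kept probe, read 8.45, 8.66 and 8.13 for vehicle and 8.84, 8.88 and 8.98 for GSK-J4. All GSK-J4 arrays were higher, with a difference of 0.49 (standard error 0.146, limma adjusted p = 0.0709) and a 95% interval from 0.13 to 0.85. Cacnb3, the brightest β subunit probe, did not pass, with -0.04 and a 95% interval from -0.32 to 0.24, and the 2 probes of Cacnb4 gave 0.03 (limma adjusted p = 0.9) and 0.12 (limma adjusted p = 0.721).

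The probes of the γ family lay mostly on the higher side. Of 10 kept probes of 7 genes, 9 had a positive difference, 3 were called higher and 0 lower, and for 7 (70%) all GSK-J4 arrays lay above all vehicle arrays. Over all kept probes the last share was 24.5%, and among those with more than 45% of G and C it was 3337 of 7306. The median difference was 0.32, against 0.02 over all kept probes. It stayed above 0 in every alternative that was run on probes, from 0.15 with the trend on base composition removed to 0.42 without vehicle replicate 2. Cacng7 encodes a γ subunit that binds AMPA receptors, and it was the only one of the 22 genes with several kept probes in which every kept probe was called one way. Its junction probe A_51_P327675 read 7.58, 7.67 and 7.70 for vehicle and 8.17, 8.19 and 8.31 for GSK-J4, a difference of 0.58 (standard error 0.0777, limma adjusted p = 0.0168). Its other probe, A_55_P2117400, lies 29.1 kb to the 3′ side and read 12.63, 12.27 and 12.22 against 13.07, 12.84 and 13.05, a difference of 0.61 (standard error 0.138, limma adjusted p = 0.0375). The rise was of similar size on both, and the gap between the probes within an array was 4.72 ± 0.28 (SD, n = 3) with vehicle and 4.76 ± 0.13 (SD, n = 3) with GSK-J4. The 2 probes differ in base composition, with 51.7% and 36.7% of G and C.

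Cacng4, also a partner of AMPA receptors, rose on probe A_66_P140829, from 10.49, 10.56 and 10.50 to 10.87, 10.96 and 11.24, without overlap, a difference of 0.50 (standard error 0.114, limma adjusted p = 0.0388). Its second probe, A_55_P2052197, was above the vehicle arrays on every GSK-J4 array too, but by 0.17 (limma adjusted p = 0.141). Besides neurons, precursors of oligodendrocytes express Cacng4, and the summed level of the 3 markers of these precursors was 13.12 to 13.33 for vehicle and 13.32 to 13.46 for GSK-J4, with 1 called higher. Their part in the value of Cacng4 was not tested. Cacng2, or stargazin, gave 0.20 (limma adjusted p = 0.139) on its brighter probe and 0.42 (limma adjusted p = 0.0702) on the other, neither called and neither overlapping. Cacng8 gave 0.39 (limma adjusted p = 0.102), Cacng3 0.18 (limma adjusted p = 0.463) and Cacng6 0.24 (limma adjusted p = 0.76). Cacng5 was the exception in sign, with -0.15 (limma adjusted p = 0.515) on a probe of 31.7% G and C. Cacng1, the γ subunit of skeletal muscle, had no kept probe.

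**Figure D2:**
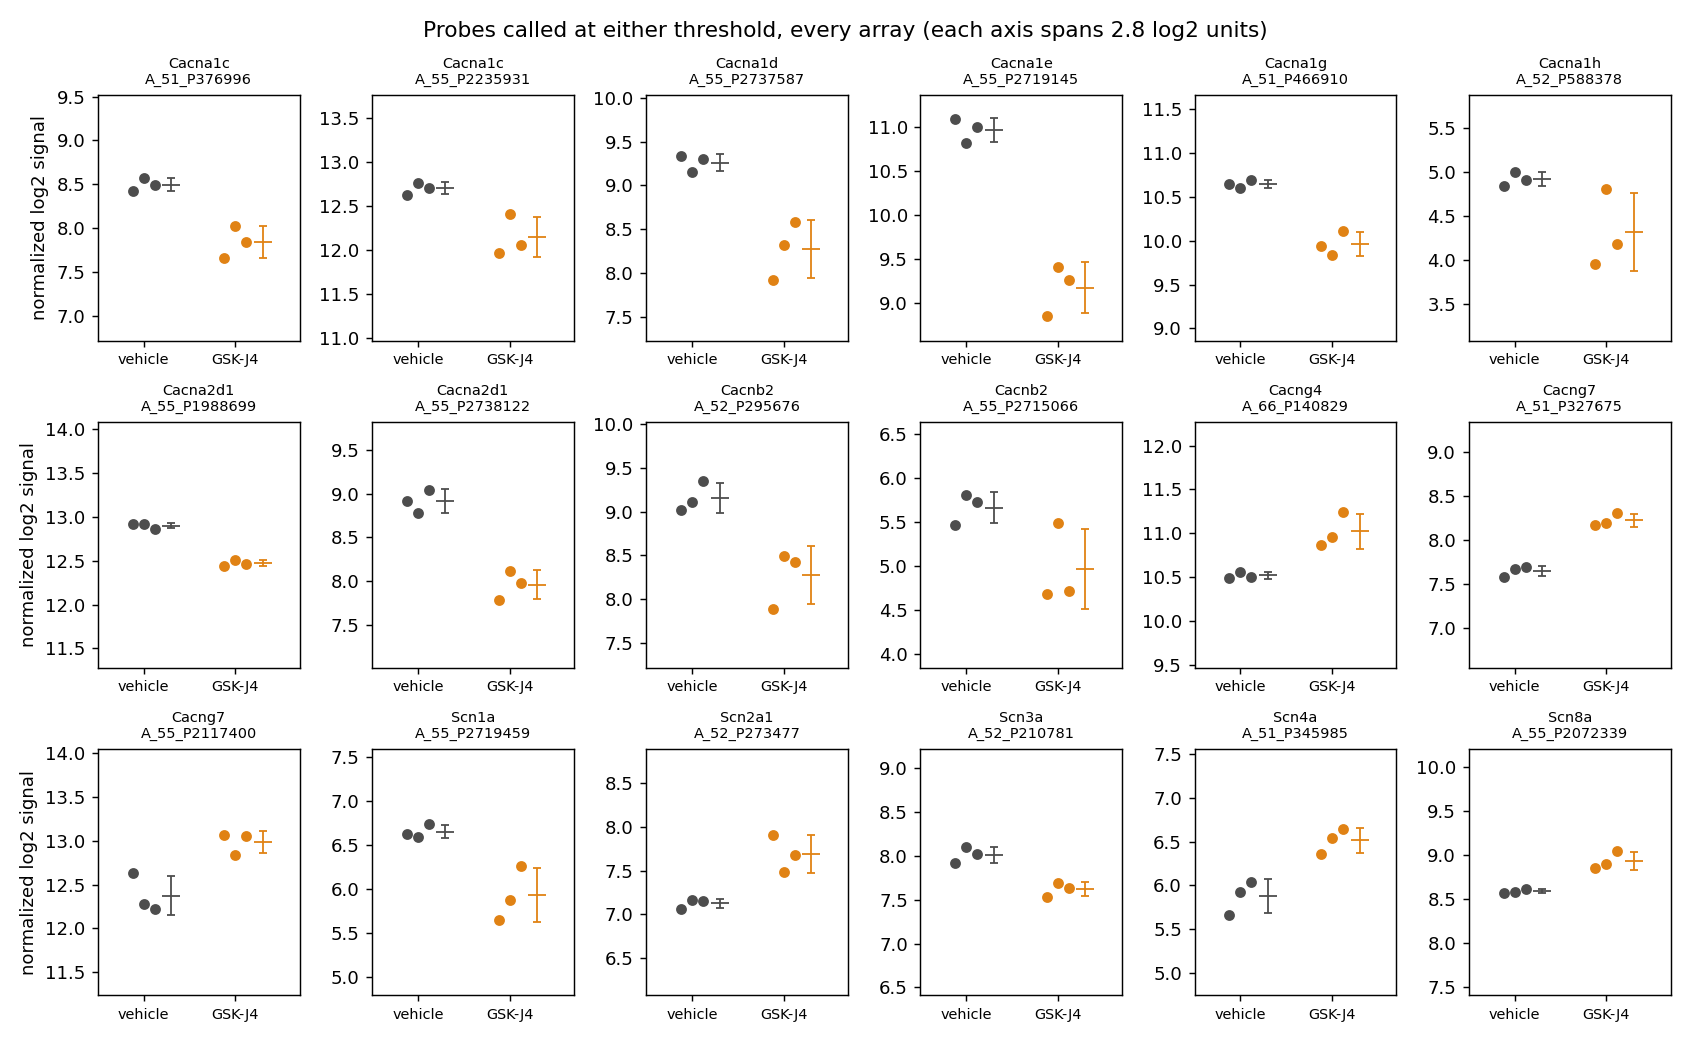
Normalized log2 signal on every array for the 18 channel probes called at an adjusted p of at most 0.05 or at the thresholds of the methods, ordered by role. Dots are arrays, from replicate 1 to 3 within each group, bars give the mean ± SD of 3 arrays, and all axes span the same range so that the drop of Cacna1e (-1.80) can be set beside the rise of Scn8a (0.34).

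The sodium channel α subunits gave calls in both directions, 3 higher and 2 lower among 21 kept probes of 7 genes. Scn2a1, the older name of Scn2a, encodes Nav1.2, a channel of central axons and dendrites. Probe A_52_P273477 near the 5′ end read 7.06, 7.16 and 7.15 for vehicle and 7.91, 7.48 and 7.68 for GSK-J4, without overlap, a difference of 0.56 (standard error 0.122, limma adjusted p = 0.0354). Along the same mRNA the next probe gave 0.32 (limma adjusted p = 0.21), the one after it -0.35 (limma adjusted p = 0.454) and the one nearest the 3′ end 0.12 (limma adjusted p = 0.629). The last of these is the brightest, and vehicle replicate 1 stood at 12.52 on it against 13.04 and 12.97 on the other vehicle arrays. Scn8a encodes Nav1.6, the channel that sets the firing threshold at the axon initial segment. Its probe A_55_P2072339 near the 5′ end read 8.57, 8.58 and 8.61 against 8.86, 8.90 and 9.04, a difference of 0.34 (standard error 0.0785, limma adjusted p = 0.039). The junction probe just before it, A_55_P2741945, gave 0.42 (limma adjusted p = 0.0581) without overlap, while the 2 probes nearer the 3′ end gave -0.13 (limma adjusted p = 0.357) and -0.07 (limma adjusted p = 0.65), so the 5′ and 3′ probes of Scn8a had opposite signs.

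Scn4a, the sodium channel of skeletal muscle, had a single probe, which read 5.66, 5.92 and 6.04 for vehicle and 6.36, 6.54 and 6.64 for GSK-J4, a difference of 0.64 without overlap (standard error 0.131, limma adjusted p = 0.0313). The summed level of the skeletal muscle markers was higher with GSK-J4 as well. Of the 5 genes of that list 4 had a kept probe, 2 were called higher and 0 lower, and their summed level was 8.842 to 9.004 on the log2 scale for vehicle and 9.197 to 9.65 for GSK-J4, with Ckm, the muscle creatine kinase, not well above background on any array. The sum stood close to the level of Acta1 alone, 8.40 to 8.64 for vehicle and 8.77 to 9.30 for GSK-J4. On their brightest probes Acta1, Mylpf and Tnnt3 did not overlap between the groups, whereas Myh4 did. The part of these markers in the values of Scn4a and Cacna1s was not tested.

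The falls among the sodium channels were in Scn1a and Scn3a. Scn1a encodes Nav1.1, the channel of fast-spiking inhibitory neurons. Probe A_55_P2719459, listed with ENSMUST00000129508, read 6.63, 6.60 and 6.74 for vehicle and 5.65, 5.88 and 6.27 for GSK-J4, a difference of -0.72 without overlap (standard error 0.165, limma adjusted p = 0.039). It lies 12.9 kb to the 5′ side of the nearest probe of the mRNA NM_018733, and the 3 probes of that mRNA gave 0.28 (limma adjusted p = 0.229), -0.14 (limma adjusted p = 0.213) and 0.17 (limma adjusted p = 0.391). On the brightest of these 3, A_55_P2138761, the groups overlapped, with 12.21, 12.28 and 12.41 for vehicle and 12.70, 12.43 and 12.27 for GSK-J4. Scn3a encodes Nav1.3, best known from the developing brain. Its probe A_52_P210781 read 7.92, 8.10 and 8.02 against 7.53, 7.69 and 7.64, a difference of -0.39 without overlap (standard error 0.0851, limma adjusted p = 0.0351). The probe nearest the 3′ end of the same mRNA, 3192 bases further on, was also lower on every GSK-J4 array, by -0.19 in difference (limma adjusted p = 0.159), and the probes of AK148881 and ENSMUST00000155838 gave -0.32 (limma adjusted p = 0.174) and 0.22 (limma adjusted p = 0.257). Probe A_55_P2741719 of Scn3a was not well above background on any GSK-J4 array. Scn11a, a channel of sensory neurons, gave -0.14 (limma adjusted p = 0.654).

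None of the 6 kept probes of the sodium channel β subunits was called by limma at an adjusted p of at most 0.05, and 1 had an interval that left out 0. The β subunits are small proteins with an immunoglobulin-like domain that also act in cell adhesion. The bright probe of Scn3b, A_55_P2487654, read 14.88, 14.87 and 15.02 for vehicle and 14.37, 14.68 and 14.64 for GSK-J4, without overlap, a difference of -0.36 (standard error 0.11, limma adjusted p = 0.0732), while the second probe of Scn3b gave 0.15 (limma adjusted p = 0.399). Scn2b read 14.16, 14.28 and 14.17 against 14.16, 14.06 and 14.00, overlapping, with -0.13 and a 95% interval from -0.33 to 0.07. Scn4b gave 0.12 (limma adjusted p = 0.635).

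Most calls belonged to some probes of a gene and not to all of them. Of the 22 channel genes with several kept probes, 12 had a called probe, 1 had every kept probe called the same way, 0 had probes called both ways and 14 had differences of both signs. The 18 kept probes listed without a RefSeq mRNA, that is only with an Ensembl transcript, a cDNA clone or another record, held 5 of the 10 lower calls and 2 of the 6 higher ones, with a median difference of -0.25. The 65 probes listed with a RefSeq mRNA held the other 5 lower and 4 higher calls, with a median of 0.09. Among all kept probes the same split gave 7.6% higher and 15.6% lower without a RefSeq mRNA and 8.84% higher and 4.32% lower with one, so channel probes of the first kind (11.1% higher, 27.8% lower) stood beside a background that leans the same way.

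The base composition of the probes varied with the direction of the difference. Of the 23 channel probes with at most 37% of G and C, 8 were called lower and 1 higher, whereas of the 30 with more than 45%, 0 were called lower and 3 higher. In the range between, 2 of 30 were called each way. All kept probes showed the same order, with 14.9% lower and 1.94% higher at most 37%, 7.53% and 7.21% in between, and 1.67% and 20% above 45%. Across the 83 channel probes the difference rose with the G and C content (Pearson's r = 0.488, Spearman's rho = 0.525), as it did over all kept probes (r = 0.325, rho = 0.363). These are descriptions across probes, which share the same 6 arrays and are not independent. The median content was 35% for the 10 probes called lower and 47.5% for the 6 called higher, and by role it ran from 35.8% for α2δ to 55% for the T-type subunits, with 45.8% for the γ family.

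With the trend on G and C content removed within each array, limma called 2 channel probes higher and 8 lower. Over all 34443 kept probes it called 1485 higher and 2120 lower. Of the 16 main calls 8 remained, and some of the lower calls were on probes not called in the main fit. Probe A_51_P376996 of Cacna1c gave -0.73 (limma adjusted p = 0.0279) and the called one of Scn1a -0.76 (limma adjusted p = 0.0454). The Cacna1e probe then gave -1.63 (limma adjusted p = 0.0163), that of Cacna1d -0.82 (limma adjusted p = 0.0449), that of Cacna1g -0.58 (limma adjusted p = 0.0288) and the clone's probe of Cacna2d1 -0.78 (limma adjusted p = 0.0249). On the lower side the calls were lost for A_55_P2235931 of Cacna1c at -0.39 (limma adjusted p = 0.102), A_55_P1988699 of Cacna2d1 at -0.26 (limma adjusted p = 0.0617), A_52_P295676 of Cacnb2 at -0.72 (limma adjusted p = 0.0634) and A_52_P210781 of Scn3a at -0.29 (limma adjusted p = 0.0767). On the higher side A_55_P2117400 of Cacng7 gave 0.72 (limma adjusted p = 0.0383) and Scn2a1 0.60 (limma adjusted p = 0.0406). Scn8a dropped to 0.08 (limma adjusted p = 0.54) and Scn4a to 0.37 (limma adjusted p = 0.127), the other probe of Cacng7 gave 0.33 (limma adjusted p = 0.0526) and Cacng4 0.47 (limma adjusted p = 0.0571). No called probe changed sign in this or in the other alternatives fitted to single probes.

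**Figure D3:**
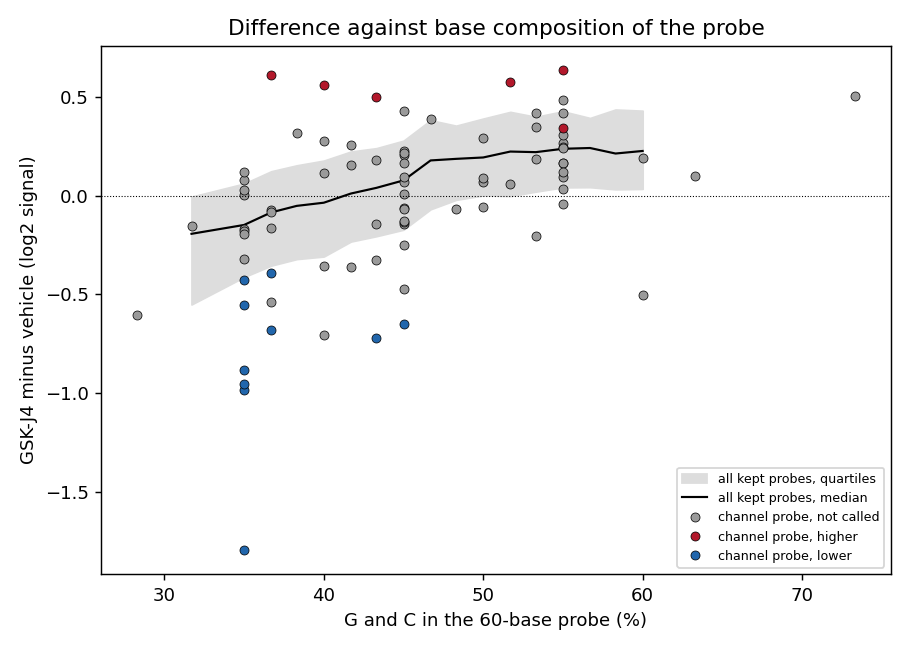
Difference of log2 signal, GSK-J4 minus vehicle, against the share of G and C in the probe, for the 83 kept channel probes (dots, coloured by their call at an adjusted p of at most 0.05). The line and the band give the median and the quartiles of all kept probes at each composition held by 100 or more of them, and both climb from left to right, as do the dots (r = 0.488).

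A list of 32 genes whose products bind, traffic or anchor these channels, or form neighbouring channels, was read beside them. Of these, 30 had 83 kept probes, of which 8 (9.64%) were called higher and 17 (20.5%) lower, against 8.39% and 8.42% of all kept probes, with a median difference of -0.03. The lower calls include probes of Unc79 and Tpcn2 that were well above background on 0 and 1 of the GSK-J4 arrays. With only probes well above background on all 6 arrays, 25 partner probes were called in all, against 3363 higher and 2801 lower of 30940. Nalcn, the sodium leak channel, and its partners Unc79 and Unc80 gave 5 of the lower calls and 0 of the higher. Nalcn fell on 1 probe, A_55_P2730906, by 0.48 on the log2 scale (limma adjusted p = 0.0238). The other kept probes of Nalcn gave -0.08 (limma adjusted p = 0.678) and -0.13 (limma adjusted p = 0.297). Unc79 was lower on 3 probes, with differences of -1.37 (limma adjusted p = 0.0139), -0.42 (limma adjusted p = 0.0312) and -0.36 (limma adjusted p = 0.0333). The first of these, A_55_P2721214, was well above background on 0 of the GSK-J4 arrays, so the size of its fall was not measured. Unc80 was called lower on 1 probe, by 0.29 on the log2 scale (limma adjusted p = 0.038). Its other 4 probes gave 0.18, 0.11, -0.34 and -0.80. The last, A_55_P2720978, had the largest fall of Unc80 and missed the adjusted threshold (limma adjusted p = 0.0533). It passed the thresholds of the methods, with every GSK-J4 array below every vehicle array. The groups overlapped on the remaining probes.

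The probes of the ankyrins and adhesion molecules, some of which hold sodium channels at the axon initial segment and nodes, went both ways. Ank3, or ankyrin-G, had 3 probes called lower, from -1.17 to -0.42. Its other kept probes gave -1.15 (limma adjusted p = 0.173) and -0.31 (limma adjusted p = 0.0589). On both, every GSK-J4 array lay below every vehicle array. Ank2 had 2 called lower, at -0.93 and -0.71, and 1 called higher at 0.82, the last on a probe of 78.3% G and C. The other kept probes of Ank2 gave 0.13, -0.14, 0.33, 0.09 and 0.01, none called, and all those listed with its mRNA NM_178655 were among them. Nrcam was called lower on 2 probes, at -0.87 and -0.66, both listed only with cDNA clones, and Nfasc higher on 1, at 0.43. On the other kept probes Nrcam gave -0.20 (mRNA NM_176930) and -0.47, both without overlap, and Nfasc 0.03, 0.36 and 0.12. None of these was called. The ubiquitin ligases Nedd4 and Nedd4l, which take sodium channels off the membrane, were called lower on 1 probe each, at -0.72 and -0.85. The other 2 probes of Nedd4 went the other way, with 0.46 (limma adjusted p = 0.109) and 0.90 (limma adjusted p = 0.175), every GSK-J4 array above every vehicle array, and the other 3 of Nedd4l gave -0.30, -0.15 and -0.09, none called. Among partners of calcium channels, the active zone gene Rims1 was higher on 1 of 4 probes, with 7.85, 8.03 and 8.12 for vehicle and 9.43, 9.06 and 8.57 for GSK-J4 and a difference of 1.02 (limma adjusted p = 0.0362), and the other 3 gave 0.41, 0.14 and -0.89, none called. Stac2 (0.51) and both called probes of the calcium sensor Cabp1 (0.30 and 0.42) were higher. The calmodulin gene Calm2 (-0.33) was lower on 1 probe and gave -0.007 on the other. Of the fibroblast growth factor homologous factors, which bind the tail of sodium channels, Fgf13 (0.75) and Fgf11 (0.37) were higher on 1 probe each. The other kept probes gave 0.07 and 0.005 for Fgf13 and 0.18 and 0.12 for Fgf11, none called. Tpcn2, an endolysosomal channel, was lower (-0.51) on a probe that was well above background on only 1 of the GSK-J4 arrays.

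**Figure D4:**
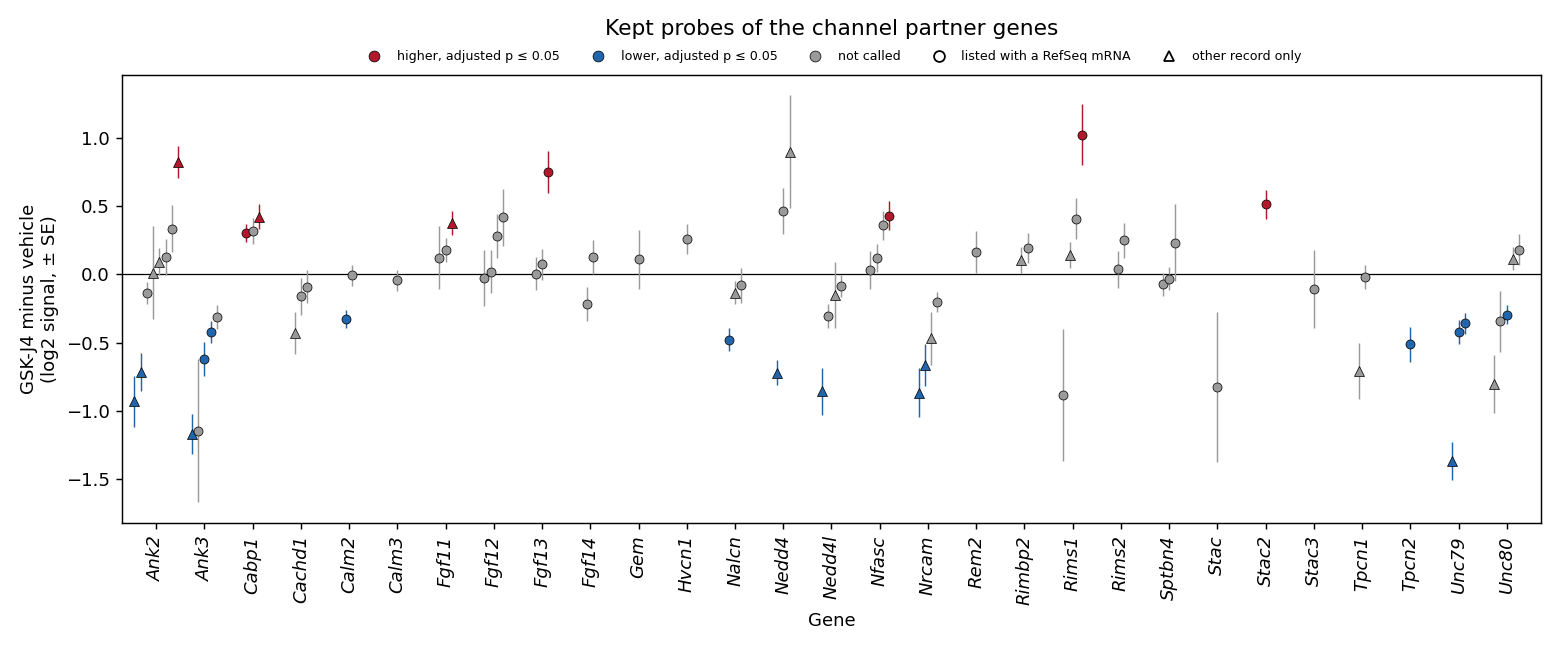
Difference of the group means of normalized log2 signal, GSK-J4 minus vehicle, with its standard error from limma, for 80 of the 83 kept probes of the partner genes, those of 29 genes, in alphabetical order. Colour marks the call at an adjusted p of at most 0.05 and triangles mark probes listed without a RefSeq mRNA, and Ank2 (-0.93 to 0.82) holds both blue and red points.

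Several channel genes were not measured well enough to be compared. The 19 channel probes that were not kept belong to 11 genes, and 15 of them were well above background on no array and 4 on 1. For Cacna1f, the L-type pore of the retina, Cacng1, and the sodium channels Scn7a, Scn9a and Scn10a no probe was kept. Scn9a and Scn10a are best known from peripheral sensory neurons, and no probe of Scn10a was well above background on any array. For Cacna1e, Cacna2d4 and Scn3a, 1 kept probe each was well above background on all vehicle arrays and on none of the GSK-J4 arrays, and none of the 3 differed enough from the lowest measurable signal to give a fold above 1.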

How the data were processed

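RNA of the hypothalamus was measured on 6 one-colour arrays, 3 per group. The authors scanned the arrays with Agilent Feature Extraction 10.7.1.1 and deposited a background-corrected intensity and detection flags for each spot, and a table of log2 values, which according to the methods were quantile normalized with GeneSpring. The sorted columns of that table differ by at most 0.00424, and each correlates with its own array's log2 intensity at 0.999 or more.

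The deposited log2 values were compared with limma 3.58.1 (lmFit and eBayes, two-sided, no covariate) in R 4.3.3 over the 34443 probes kept, with Benjamini-Hochberg adjustment. Spots flagged as outliers were left out of the detection filter and of the normalizations redone from scanner signals. The deposited values were used as they stood. A difference is that of group means on the log2 scale, and an interval covers 95%. The number of arrays limits the precision. Within a group arrays correlated at 0.978 to 0.995. Every channel probe called at either threshold is named, with the other kept probes of its gene, and otherwise the brightest probes of each role. The channel genes, the partner list and the marker lists were chosen with earlier results of these data known. Alternatives were other normalizations, filters, variance models, the methods' t-test, 1 value per gene, removal of the trend on base composition (lowess, span 30%), the replicate number as a block and leaving out each array. Coordinates (mm9) were taken from the files, and Scn2a1 was matched to Scn2a through the RefSeq gene table (GRCm38.p6), used for names only. limma was tested on simulated data. The position of probes within exons or untranslated regions was not analysed here. Some genes are not reported here by name or drawn by gene, and they stay in all counts.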

Additional observations from a re-analysis of the deposited data

How the results depend on the processing

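The first count of channel probes is that of higher ones and the second that of lower ones. At an adjusted p of at most 0.05, the main counts of 6 and 10 became 1 and 6 with no filter on dim probes, 2 and 6 with the methods' t-test with equal variances, 0 and 1 with unequal variances (where 26 channel probes had an unadjusted p under 0.05), 3 and 5 with the brightest probe of each gene, and 3 and 2 with the mean of the kept probes of a gene. Over all features 2889 and 2899 became 1793 and 1972 of 56605 with no filter. By the t-tests they were 1831 and 1484 with equal variances and 56 and 37 with unequal variances. With 1 value per gene they were 1988 and 1723 (brightest probe) and 1867 and 1642 (mean) of 22117. With the trend on base composition removed the higher count of channel probes was 2, against 1485 of all kept probes. Leaving out 1 array gave 0 to 5 higher and 0 to 10 lower channel probes. The replicate numbers were not taken to pair the samples, which come from different mice. The correlations of the deviations of same-numbered arrays were 0.0073, 0.0256 and 0.0807. They cannot decide whether the numbers pair the samples, because no correlations of differently numbered arrays stand beside them. A limma fit with a replicate block called 0 and 0 channel probes (28 with an unadjusted p under 0.05), 0 partner probes and 0 of all kept probes. At the thresholds of the methods, 2 and 9 became 1 and 5 with normexp, 2 lower with the brightest probe of each gene and 0 lower with the mean of a gene's probes, and 0 to 4 higher and 5 to 11 lower without 1 array. Over all kept probes 1651 and 2706 became 523 and 1097 with normexp. The lower counts over all genes, 22117 in number, were 1414 with the brightest probe and 1455 with the mean. The median difference of the channel probes, 0.0592, was 0.00812 with normexp, -0.0628 with the trend on base composition removed, and 0.00784 to 0.0573 without 1 array. Partner probes called, 25 in all, numbered 13 with no filter, 14 with the trend removed, 12 and 0 by the t-tests with equal and unequal variances, 4 with the brightest probe of each gene, 6 with the mean of a gene's probes and 0 to 14 without 1 array. The cause of these changes was not tested. Fewer features were tested with 1 value per gene, and fewer arrays in the fits without 1. The higher calls among channel probes were 8 with scaling to the 75th percentile, with 9 lower, against 5036 and 3635 of all kept probes. No channel probe called at either threshold reversed its sign in the alternatives fitted to single probes. With the brightest probe of each gene, however, Scn1a (0.17), Scn8a (-0.13) and Cacna1h (0.19) were read from probes opposite in sign to the called ones.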
